A study of Cavia porcellus with 30 samples.

Results

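After a single injection of mercuric chloride, 205 of 25824 kidney transcripts of the guinea pig had moved at 9 h at both doses and were back near the vehicle level at 33 h. Of these, 172 were higher at 9 h and 33 were lower. They were selected on group means of TPM (transcripts scaled to a fixed total per library and corrected for transcript length). The difference L of a treated group was the log2 ratio of its mean TPM plus 1 to the mean TPM plus 1 of the vehicle group of the same time. A transcript entered when L had the same sign and a size of at least 0.58 at both doses at 9 h, and a size under 0.3 at both doses at 33 h. Being high or low at 9 h and near the vehicle level at 33 h is therefore how these transcripts were chosen and not a result. All 30 animals took part in the choice, so no animal was left for an independent test, and the values at these comparisons are given as descriptions.

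The animals were male Hartley guinea pigs, an outbred stock, in 6 groups of 5. They received saline vehicle at 1 ml/kg, a low dose of 1.00 mg/kg or a high dose of 1.50 mg/kg mercuric chloride into the peritoneal cavity, and kidneys were taken at 9 or 33 h. The labels give no age, and per the study's methods the animals were bought at an age of a few weeks, carried a jugular catheter, and were sampled at the same time of day at both times after a daytime fast. The 33 h animals had food for the first day and the 9 h animals had none after the injection. Whole kidneys were powdered before RNA was taken, so a lower level can come from fewer cells of a type or from less RNA per cell, and these cannot be told apart.

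Inorganic mercury is concentrated by the kidney, where the proximal tubule takes it up bound to small thiols such as cysteine and glutathione. It binds thiol groups of proteins, depletes glutathione and injures the straight part of the proximal tubule, and surviving tubule cells later divide and repair the epithelium. Early responses to such injury are known to include stress and growth-response genes whose transcripts rise within hours and decay quickly. The deposited tables name transcripts by Ensembl identifiers only. Ensembl and numeric Entrez gene identifiers were at hand for 53 of the 172 rises and 5 of the 33 falls, but no table used here paired these with gene symbols, so gene lists and cell type markers were not analysed here, and neither were sequences. The tissue rests on the labels. The transcripts are described below by level, size of difference, length and behaviour in each animal, and 4 are named by identifier.

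Total estimated counts per animal lay between 23134713 and 36072327. The libraries of the 9 h vehicle group differed in composition. A single transcript that was not among the 205 held 13.7% of the counts of vehicle animal 59 and 4.76% of those of animal 58, and between 1.58% and 1.94% in the other 9 h vehicle animals. The high-dose group at 33 h was uneven as well, with 1.81% to 4.97%, the highest in animal 53. In the remaining groups that transcript held 0.877% to 2.03%. The labels number the animals from 31 to 60, and the 9 h vehicle animals are 31, 32, 58, 59 and 60, the first and the last numbers of the series, so differences at 9 h are also given below against animals 31 and 32 alone and against 58, 59 and 60 alone. These sets are parts of the group that was used for the choice and are no independent control.

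Of the 800 transcripts that were at least 0.58 higher at both doses at 9 h, 21.5% were back within 0.3 of vehicle at both doses at 33 h, which gives the 172 rises. A further 305 were within that limit at the low dose only, 25 at the high dose only and 298 at neither. Of the 402 transcripts that were at least 0.58 lower at 9 h, 8.21% were within the limit at both doses at 33 h, and 85, 10 and 274 were within it at the low dose only, at the high dose only and at neither. Of the early changes that were near the vehicle level at a single dose at 33 h, most were so at the low dose.

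The rises had a median L of 0.80 at the low dose (range 0.59 to 3.14, the highest resting on a single animal) and 0.82 at the high dose (0.58 to 2.64) at 9 h. At 33 h their median L was -0.0008 at the low dose and 0.10 at the high dose, where 123 of 172 were above 0. Over all transcripts that passed the filter on low counts, the medians were 0.08 and 0.06 at 9 h and -0.02 and 0.03 at 33 h. Most differences were modest. In 26 rises both doses reached at least 1 on the log2 scale, in 5 at least 1.5 and in 1 at least 2. The falls had medians of -0.74 at the low and -0.71 at the high dose at 9 h, and -0.07 and -0.04 at 33 h, where 23 and 24 of the 33 were below 0. Only 1 of the 33 falls reached a size of 1 at both doses. The highest low-dose value belonged to a transcript with 42.1 TPM in low-dose animal 37 and at most 0.233 TPM in the other 4, and its low-dose L was 0.05 without that animal. At the high dose it had 4.69 TPM in animal 38 and at most 0.184 TPM in the other 4. In 91 of the 172 rises and 9 of the 33 falls both doses kept a difference of at least 0.58 whichever single 9 h animal was left out, and in 10 rises and 5 falls a dose dropped below 0.3 without some animal. The rises just inside and just outside the 9 h threshold had 0.581 and 0.576, and for the 33 h limit 0.2991 and 0.30. For the falls these pairs were 0.582 and 0.579, and 0.284 and 0.323.

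Ranked by the smaller L of the doses, the first rise was ENSCPOT00000035308.1, a transcript of 4301 bases of the gene ENSCPOG00000037468 (listed with Entrez number 29739). In the 9 h vehicle animals its level was 18.3, 17.6, 16.1, 19.8 and 17.6 TPM. At 9 h it was 76.2, 84.6, 122.4, 142.1 and 106.0 TPM at the low dose and 121.7, 107.1, 96.8, 125.3 and 134.4 TPM at the high dose. Every treated animal lay well above every vehicle animal, and the 2 doses overlapped each other. The means were 17.9 ± 1.32 TPM with vehicle, 106 ± 27.0 TPM at the low dose and 117 ± 15.0 TPM at the high dose (SD, n = 5 each). At 33 h it was 22.6, 16.5, 16.5, 20.2 and 25.2 TPM with vehicle, 19.8, 23.8, 22.0, 19.3 and 22.8 TPM at the low dose and 24.3, 21.1, 21.0, 22.4 and 17.1 TPM at the high dose. The 3 groups overlapped at that time. The edgeR log2 fold change was 2.47 (SE 0.171) at the low dose and 2.64 (SE 0.121) at the high dose at 9 h, and 0.13 (SE 0.121) and 0.03 (SE 0.127) at 33 h. Against vehicle animals 31 and 32 or against 58, 59 and 60 its L at the high dose was 2.64 and 2.65, and against the vehicle animals of 33 h it was 2.48, so the choice of control animals barely moved it.

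The second named rise, ENSCPOT00000030964.1 (1839 bases), was scarce in vehicle animals. It had 0.498, 0.461, 0.463, 0.478 and 0.42 TPM with vehicle at 9 h. With the low dose it had 2.20, 2.81, 5.97, 9.02 and 6.46 TPM and with the high dose 3.55, 3.89, 2.59, 6.45 and 7.71 TPM. All 10 treated animals were above all vehicle animals, over a wide range. The edgeR log2 fold change at 9 h was 3.40 (SE 0.387) at the low dose and 3.31 (SE 0.328) at the high dose. At 33 h the vehicle animals had 0.627, 0.508, 0.730, 0.523 and 0.498 TPM, the low-dose animals 0.603, 1.24, 0.666, 0.699 and 1.21 TPM, and the high-dose animals 0.998, 0.845, 0.806, 1.103 and 0.937 TPM. All 5 high-dose animals were still above all 5 vehicle animals at 33 h, and the low-dose animals overlapped with them. Its L at the high dose at 33 h was 0.30, inside the limit, while the edgeR log2 fold change was 0.64 (SE 0.239), since 1 TPM added to both means shrinks the ratio of a scarce transcript. Its L at 9 h was 2.09 and 1.98 (low and high dose) against vehicle animals 31 and 32 and 2.11 and 2.01 against 58, 59 and 60. For this transcript "back at the vehicle level" holds only on the scale used for the choice.

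The other 3 rises that reached 1.5 at both doses were chosen for description after their values were seen. A transcript of 2319 bases had 118.6, 137.8, 115.1, 124.0 and 131.1 TPM in the 9 h vehicle animals. It had 364.6, 330.7, 387.9, 443.4 and 383.1 TPM at the low dose and 400.4, 377.3, 322.8, 424.1 and 410.8 TPM at the high dose. The groups were far apart, and the spread within each was small. Its means at 33 h were 120 ± 18.8 TPM with vehicle, 143 ± 34.1 TPM at the low dose and 136 ± 18.1 TPM at the high dose (SD, n = 5 each). A transcript of 2689 bases had a mean of 61.1 ± 8.95 TPM with vehicle, 202 ± 18.7 TPM at the low dose and 192 ± 18.9 TPM at the high dose at 9 h (SD, n = 5 each), and 63.7, 76.9 and 66.1 TPM at 33 h. A transcript of 3436 bases was near 0 in vehicle animals, from 0 to 0.274 TPM at 9 h, and had 1.72 to 4.24 TPM in the 10 treated animals. In each of these 5 rises the 10 treated animals lay above the 5 vehicle animals.

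The most abundant rise, of 2844 bases, was also described after its values were seen. It had 487.7, 469.2, 441.3, 528.9 and 490.8 TPM in the vehicle animals at 9 h. The low-dose animals had 616.3, 841.0, 1156.0, 1103.4 and 992.3 TPM and the high-dose animals 1126.4, 900.0, 900.0, 939.6 and 936.2 TPM. Every treated animal was above every vehicle animal, and low-dose animal 33 was the closest to them. At 33 h its means were 512 ± 23.2 TPM with vehicle, 505 ± 32.6 TPM at the low dose and 572 ± 34.4 TPM at the high dose (SD, n = 5 each).

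Among the falls, ENSCPOT00000010657.3 (1197 bases, gene ENSCPOG00000010562, listed with Entrez number 116467) ranked first by the rule for naming. The 9 h vehicle animals 31, 32, 58, 59 and 60 had 54.7, 73.5, 77.2, 82.6 and 88.0 TPM. The low-dose animals had 45.2, 45.9, 39.8, 30.5 and 30.3 TPM, and the high-dose animals 37.8, 46.8, 22.5, 33.4 and 38.7 TPM. The groups did not overlap, and animal 31 was the closest to the treated animals. At 33 h the levels were 44.8, 43.0, 68.3, 49.2 and 60.0 TPM with vehicle, 71.6, 49.4, 52.8, 50.2 and 58.3 TPM at the low dose and 41.5, 50.3, 51.7, 52.8 and 57.3 TPM at the high dose. The 33 h groups overlapped, and all of them lay mostly between the 2 levels of 9 h. The means at 9 h were 75.2 ± 12.7, 38.3 ± 7.61 and 35.9 ± 8.89 TPM, and the vehicle mean at 33 h was 53.0 ± 10.8 TPM (SD, n = 5 each). The edgeR log2 fold change was -1.09 (SE 0.173) at the low dose and -1.15 (SE 0.195) at the high dose at 9 h. L was -0.73 and -0.82 (low and high dose) against animals 31 and 32 and -1.09 and -1.18 against 58, 59 and 60. Between the vehicle groups the edgeR log2 fold change was -0.63 (SE 0.177) at 33 h against 9 h, with an edgeR adjusted p of 0.257.

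ENSCPOT00000001872.3 (4366 bases, gene ENSCPOG00000001851, listed with Entrez number 85242) had 10.1, 12.02, 12.4, 11.9 and 11.8 TPM in the 9 h vehicle animals. It had 8.88, 8.03, 5.30, 4.42 and 4.73 TPM at the low dose and 4.59, 6.74, 5.18, 5.84 and 3.98 TPM at the high dose. The groups did not overlap, and low-dose animals 33 and 34 were the nearest to the vehicle animals. At 33 h the vehicle animals had 10.6, 7.27, 10.7, 7.78 and 7.92 TPM, with group means of 8.84 ± 1.64 TPM for vehicle, 8.19 ± 1.22 TPM for the low dose and 9.25 ± 0.772 TPM for the high dose (SD, n = 5 each). The edgeR log2 fold change at 9 h was -0.998 (SE 0.201) at the low dose and -1.22 (SE 0.143) at the high dose. L was -0.73 and -0.95 (low and high dose) against animals 31 and 32 and -0.84 and -1.06 against 58, 59 and 60. Between the vehicle groups the edgeR log2 fold change was -0.51 (SE 0.141) at 33 h against 9 h, with an edgeR adjusted p of 0.249.

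**Figure D1:**
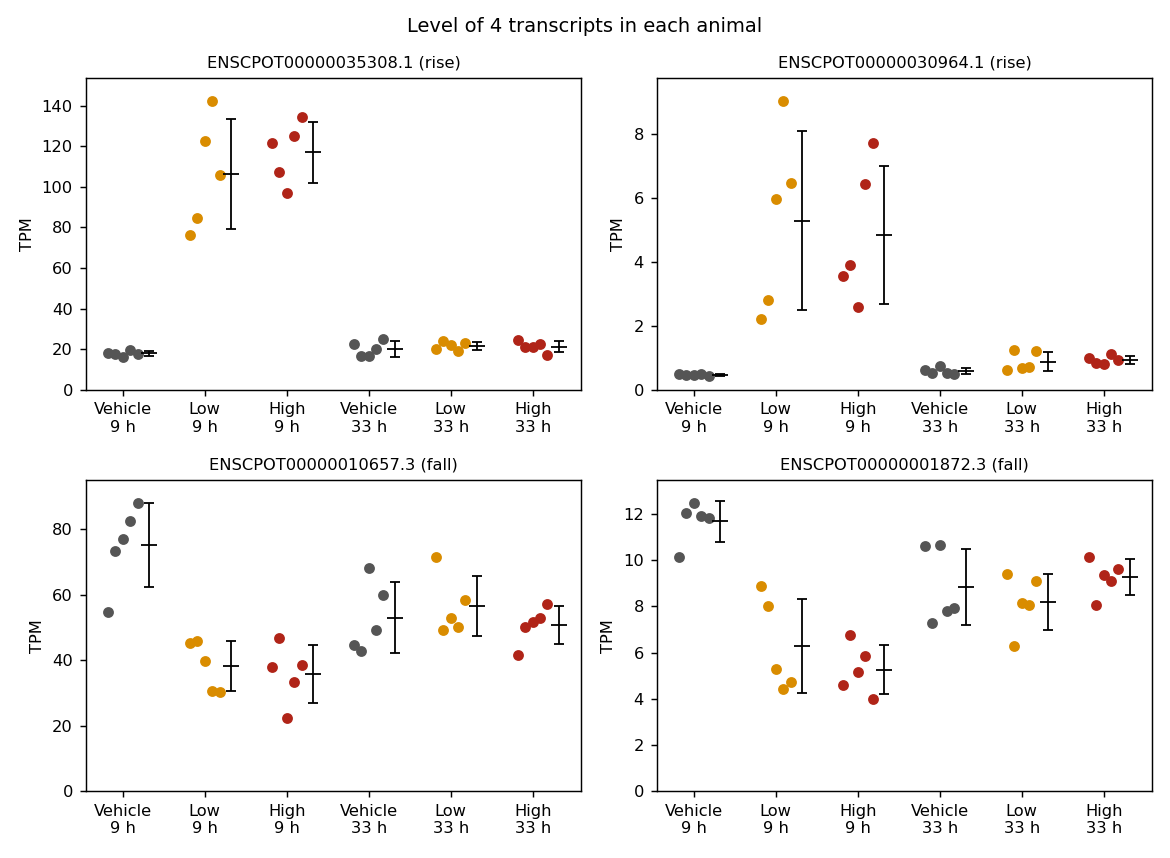
Level (TPM, linear axis from 0) of 4 transcripts in each of 30 animals, by group, with the group mean and SD (n = 5) as a bar beside the points. The treated animals stand apart from the vehicle animals at 9 h in all 4 panels, and at 33 h the vehicle mean of both falls is lower than at 9 h (53.0 against 75.2 TPM, and 8.84 against 11.7 TPM).

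At the level of single animals, the median over the 172 rises of the difference from the vehicle mean was 0.38, 0.51, 0.91, 1.01 and 0.84 in the low-dose animals at 9 h and 1.01, 0.55, 0.87, 0.46 and 0.89 in the high-dose animals. Low-dose animals 33 and 34 and high-dose animals 39 and 41 had the smaller differences, so the spread within a dose was larger than that between the doses. The 9 h vehicle animals lay between -0.11 and 0.07. At 33 h all 15 animals lay between -0.10 and 0.12, the high-dose animals from 0.04 to 0.12. The falls had medians of -0.91 to -0.72 at the low dose and -1.05 to -0.66 at the high dose at 9 h, and the 9 h vehicle animals reached from -0.36 in animal 31 to 0.15 in animal 60. At 33 h they lay between -0.08 and 0.05 with vehicle, between -0.14 and -0.02 at the low dose and between -0.25 and -0.03 at the high dose. All 10 treated animals were below 0 there, and 3 of the 5 vehicle animals were above it.

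**Figure D2:**
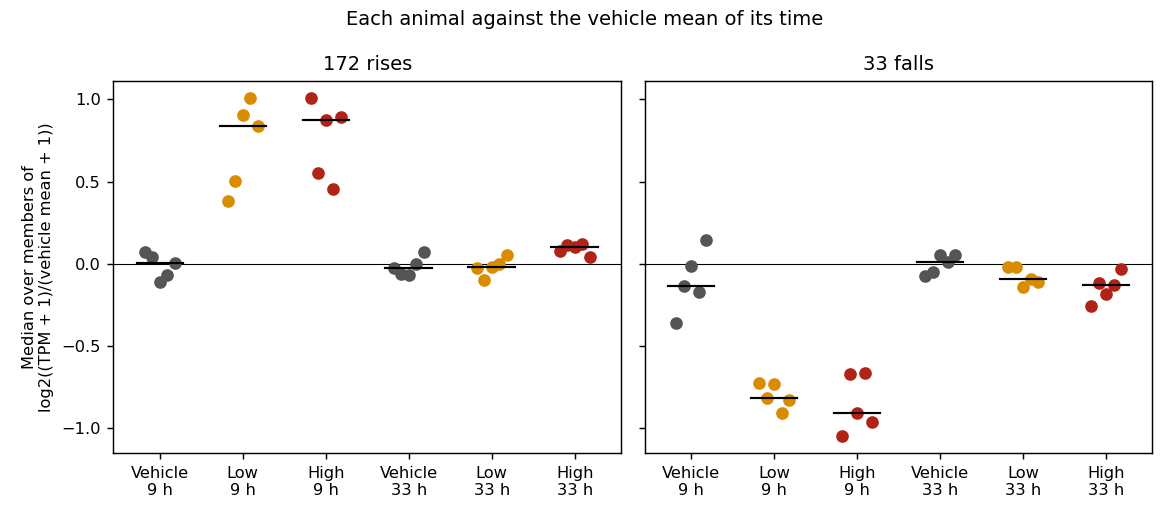
Median over the 172 rises (left) and the 33 falls (right) of each animal's log2 difference from the vehicle mean of its time (TPM plus 1), with the median animal of each group as a bar. Treated animals at 9 h sit at 0.38 to 1.01 for the rises and -1.05 to -0.66 for the falls, as the choice of these transcripts sets, and the vehicle animals spread more for the falls (-0.36 to 0.15) than for the rises (-0.11 to 0.07).

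For 81 of the 172 rises (47.1%) all 10 treated animals at 9 h were above all 5 vehicle animals, where 3.73% of all transcripts were. For 8 of the 33 falls (24.2%) all 10 were below, against 1.17% of all transcripts. With the vehicle animals of both times as controls, 46 rises (in parentheses the share of all transcripts with that pattern, 1.21%) and 2 falls (0.558% of all) were without overlap, and against all 20 other animals 29 rises (0.263% of all) and 1 fall (0.0155% of all). Against animals 31 and 32 alone 87 rises (4.87% of all) and 12 falls (6.88% of all) were, and against animals 58, 59 and 60 alone 108 rises (12.2% of all) and 12 falls (1.88% of all). At 33 h, 1 rise and 0 falls had all 10 treated animals to one side of the vehicle animals, against 2.0% of all transcripts. These shares are descriptions, since the same means chose the transcripts.

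A count test was run with edgeR's quasi-likelihood method over the 19729 transcripts that passed its filter, with a call at a Benjamini-Hochberg adjusted p of at most 0.1. Of the 172 rises 163 passed the filter, and of the 33 falls 29. At the low dose at 9 h, 141 of 163 rises were called higher, with 11.7% of all transcripts tested called higher, and 21 of 29 falls were called lower, with 11.3% of all called lower. At the high dose 143 rises were called higher, with 16.9% of all, and 23 falls lower, with 15.9% of all. Both doses were called in 136 rises, with 10.1% of all called higher at both, and in 20 falls, with 9.67% of all called lower at both. Neither dose was called in 15 rises and 5 falls, as in 64.0% of all. The contrasts are those of the choice, and nothing is read from the counts.

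At 33 h, 0 rises and 0 falls were called at the low dose, where 0.476% of all transcripts were called higher and 0.421% lower. An unadjusted p under 0.05 was found for 7 rises and 1 fall, with 15.8% of all transcripts under it, and DESeq2 called 2 rises and 0 falls, with 7.51% of all called. Without low-dose animal 49, edgeR called 4 rises. At the high dose 28 rises were called higher and 4 lower, with 25.1% of all transcripts called higher and 24.1% lower. These 32 rises had a median size of 0.24 on the log2 scale (range -0.44 to 0.64), and 31 of them were under 0.58. Of the falls, 3 were called lower at the high dose, by 0.27 to 0.38 on the log2 scale, and 7 without high-dose animal 54. Of the 136 rises called at both doses at 9 h, 104 were called at neither dose at 33 h, and of the 20 falls 17, against 28.2% and 21.1% of all transcripts called higher or lower at both doses at 9 h. Fitted on counts, with no 1 TPM added, 8 rises at the low dose and 9 at the high dose had a log2 fold change of at least 0.58 in size at 33 h, as did 12.9% and 27.8% of all transcripts tested, and each of these rises had a mean under 5 TPM. At the low dose 3 of them were above vehicle and 5 below, and at the high dose 3 above and 6 below. Of the falls, 2 were above vehicle by that size at the low dose and 3 below at the high dose. ENSCPOT00000030964.1 was the only one of the 9 rises at the high dose that was called, and its call was lost without vehicle animal 44 or 46 or without high-dose animal 53 or 56.

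The change of the dose effect between times was also fitted, over the 20 animals of each dose and of vehicle. For the low dose, the effect was called lower at 33 h than at 9 h in 71 rises, with 2.39% of all transcripts called lower, and called higher in 7 falls, with 2.83% of all. For the high dose it was called lower in 114 rises, with 10.3% of all, and higher in 9 falls, with 10.2% of all. Both doses were called in 66 rises, with 1.60% of all called lower at both, and in 7 falls, with 2.0% of all called higher at both. The choice of the transcripts favours this direction, and 1 of the 29 falls tested had the opposite sign at the high dose. The low-dose counts depended on single animals: the rises came to 35 without low-dose animal 36, 36 without 35 and 45 without 37, to 44 without vehicle animal 58, to 42 and 46 without vehicle animals 46 and 47, and to 46 without low-dose animal 51. The falls came to 3 without animal 35, 36, 46, 52 or 58 and to 4 without 37, 43, 47 or 50.

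The doses were also set against each other at 9 h. The choice required a difference of the same sign and of at least 0.58 at both doses, which favours likeness of the doses, so these values are a description as well. L was larger at the high dose in 96 rises and at the low dose in 76, and in 17 and 16 falls. With edgeR, 0 rises and 0 falls were called between the high and the low dose, as were 0% of all 19729 transcripts. An unadjusted p under 0.05 was found for 3 rises and 1 fall, with 3.23% of all transcripts under it, and DESeq2 called 0 of each, with 0.0713% of all called. The median edgeR log2 difference, high minus low dose, was 0.05 over the rises and -0.02 over the falls. For ENSCPOT00000035308.1 the difference was 0.17 (SE 0.177).

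The vehicle animals themselves differed between the times, in the direction of the treated animals. From 9 to 33 h the vehicle mean went up for 154 of 172 rises, with a median of 0.22, and down for 31 of 33 falls, with a median of -0.49, on the log2 scale of TPM plus 1. The median over all transcripts was 0.09. In 65 rises and 23 falls the vehicle mean moved by at least 0.3 in the direction of the treated 9 h level, in some cases past it. In 0 rises and 0 falls it moved that much in the other direction. The 9 h vehicle group is part of both differences, so transcripts chosen because it was low or high at 9 h are bound to lean this way. With edgeR, 0 rises and 0 falls were called between the vehicle groups, with 0% of all transcripts called higher and 0% lower. An unadjusted p under 0.05 was found for 34 rises and 14 falls, with 11.7% of all transcripts under it, and DESeq2 called 13 and 6, with 2.96% of all called. With animals 58, 59 and 60 as the only 9 h vehicle animals, edgeR called 9 rises higher, with 1.64% of all called higher, and 1 rise and 10 falls lower, with 1.45% of all called lower.

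Set against the 33 h vehicle animals instead, both doses at 9 h were still at least 0.58 higher for 69 of 172 rises and at least 0.58 lower for 3 of 33 falls. For 20 rises and 12 falls both doses at 9 h were within 0.3 of the 33 h vehicle mean, and for 11 rises and 5 falls a dose had the opposite sign. The median differences were 0.55 at each dose for the rises, and -0.34 and -0.31 for the falls. The treated 9 h animals and the 33 h vehicle animals also differ in time and feeding, which cannot be told apart from treatment here.

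The 9 h vehicle animals were then taken in their 2 sets. Against animals 31 and 32 alone, 113 rises and 20 falls kept a difference of at least 0.58 at both doses, and against 58, 59 and 60 alone 163 rises and 24 falls did. With either set 104 rises and 11 falls did, and 63 rises and 1 fall did so against the 33 h vehicle animals as well. The median L of the rises was 0.72 and 0.74 (low and high dose) against the first set and 0.88 at each dose against the second, while the median of all transcripts was 0.00 and -0.02 against the first set and 0.13 and 0.11 against the second. The rises were lowest in vehicle animal 58 for 66 transcripts and in animal 59 for 48. A single abundant transcript held 4.76% of the counts of animal 58 and 13.7% of those of animal 59, and a link was not tested. With TPM rescaled after removal of that transcript, the rule found 154 rises, all among the 172, and 39 falls, which held all 33. After division of TPM by the TMM factor of each library, which sets the median of all transcripts to 0.00 and -0.03, the rule found 145 rises and 47 falls, 105 and 29 of them among the 172 and 33.

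**Figure D3:**
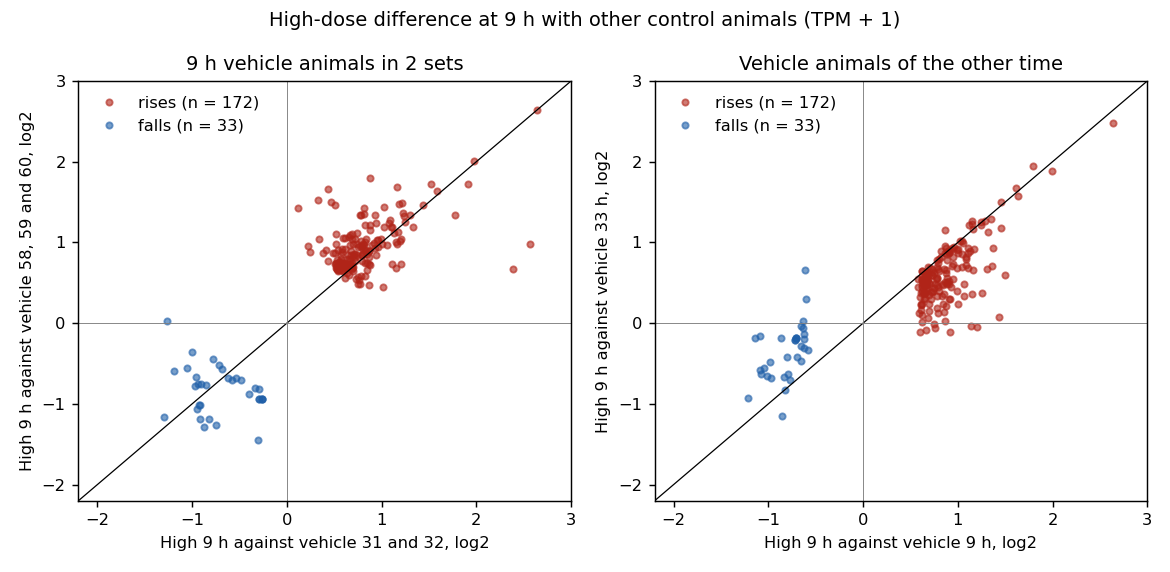
Log2 difference of the high dose at 9 h (TPM plus 1) for the 172 rises and 33 falls with other control animals. Left, vehicle animals 58, 59 and 60 on the vertical axis against animals 31 and 32 on the horizontal axis, and right, the 33 h vehicle animals against all 9 h vehicle animals, with the line of equality. Most points of the right panel lie nearer to 0 on the vertical axis than on the horizontal one, with medians of 0.55 against 0.82 for the rises and -0.31 against -0.71 for the falls.

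The edgeR fits were repeated with each set, which changes both the number and the identity of the vehicle animals. Against animals 31 and 32, 8 rises were called higher at the low dose (0.208% of all transcripts were) and 0 falls lower (0.0203% of all), with 102 rises and 18 falls at an unadjusted p under 0.05, where 15.4% of all were. DESeq2 was not run on the sets. At the high dose 18 rises (0.466% of all) and 1 fall (0.167% of all) were called, with 115 rises and 12 falls at an unadjusted p under 0.05, where 20.1% of all were. Against animals 58, 59 and 60, 97 rises (8.22% of all) and 21 falls (6.52% of all) were called at the low dose, and 121 rises (13.1% of all) and 19 falls (11.2% of all) at the high dose. The low-dose calls of ENSCPOT00000030964.1, ENSCPOT00000010657.3 and ENSCPOT00000001872.3 and the high-dose call of ENSCPOT00000010657.3 were lost against animals 31 and 32. In each of these 4 fits the fitted difference of all 163 rises was above 0 and that of all 29 falls below 0. The choice favours these signs, since each set was part of the vehicle group used for it, so they are a description. The median fitted difference of the rises was 0.84 and 0.88 against animals 31 and 32 at the low and high dose and 0.91 and 0.89 against animals 58, 59 and 60. That of the falls was -0.82 and -1.01 against animals 31 and 32 and -1.12 and -1.23 against animals 58, 59 and 60.

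The rises were spread over all levels of abundance. By the higher of the 9 h group means, 4 were under 1 TPM, 51 between 1 and 5, 74 between 5 and 50, 42 between 50 and 500 and 1 above 500 TPM. The median vehicle level at 9 h was 6.22 TPM, against 6.76 TPM for all transcripts tested. Of the 94 rises with at least 5 TPM in all 6 groups, 64 had all treated above all vehicle animals at 9 h, with 7.08% of all transcripts of that level, and 89 were called at both doses, with 13.6% of all of that level. Of the falls, 18 were under 5 TPM, 8 between 5 and 50, 1 between 50 and 500 and 6 above 500 TPM. The median coefficient of variation among the 9 h vehicle animals was 38.2% for the falls, 17.9% for the rises and 15.5% for all transcripts tested. The falls were also shorter, with a median of 1525 bases against 2077 for the rises and 2506 for all transcripts tested, and 27.3% of them were under 500 bases, against 6.98% and 3.23%. The medians and length shares of the rises and falls include the 9 and 4 members that did not pass the filter, with lengths from 105 and 222 bases. Those of all transcripts tested leave such transcripts out, so the sets compared are not alike. With transcripts of equal values counted once (30 falls), the median length of the falls was 1674 bases, 6 were under 500 bases, and the median coefficient of variation was 37.1%.

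Of the 6 falls above 500 TPM, 5 carried only 2 distinct series of values. A pair of transcripts of 432 bases had equal values in every animal, and so did a triple of 159 bases. Each of these series counts as a single measurement. The levels of the triple were 7803.7, 7172.8, 13172.8, 7288.5 and 15529.0 TPM in vehicle animals 31, 32, 58, 59 and 60. Animals 58 and 60 were far above the other 3, and the pair showed the same, with 5633.2 and 6064.7 TPM in these animals and 3025.8 to 3198.1 TPM in the others. The treated animals at 9 h lay between 4685.2 and 7482.8 TPM for the triple and between 1873.4 and 3136.8 TPM for the pair. Against animals 31 and 32 alone, L of the triple was -0.30 at the low and -0.26 at the high dose, and against animals 58, 59 and 60 it was -0.98 and -0.94. At 33 h a single animal of each dose also stood out for the triple, with 9337.8 TPM at the low and 11946.6 TPM at the high dose.

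The remaining abundant fall, of 3596 bases, behaved otherwise. It had 740.8, 964.0, 794.3, 682.4 and 757.4 TPM in vehicle animals 31, 32, 58, 59 and 60 at 9 h. The low-dose animals lay between 367.2 and 585.8 TPM and the high-dose animals between 334.0 and 509.3 TPM. No treated animal reached a vehicle animal. At 33 h the levels were 832.0 to 1029.5 TPM with vehicle, 630.9 to 1171.7 TPM at the low dose and 700.6 to 944.3 TPM at the high dose, with overlap between the groups. Its L at the low and the high dose at 9 h was -0.83 and -0.97 against animals 31 and 32 and -0.63 and -0.78 against animals 58, 59 and 60. It was the sole fall that stayed at least 0.58 below vehicle at both doses against each set of 9 h vehicle animals and against the 33 h vehicle animals.

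**Figure D4:**
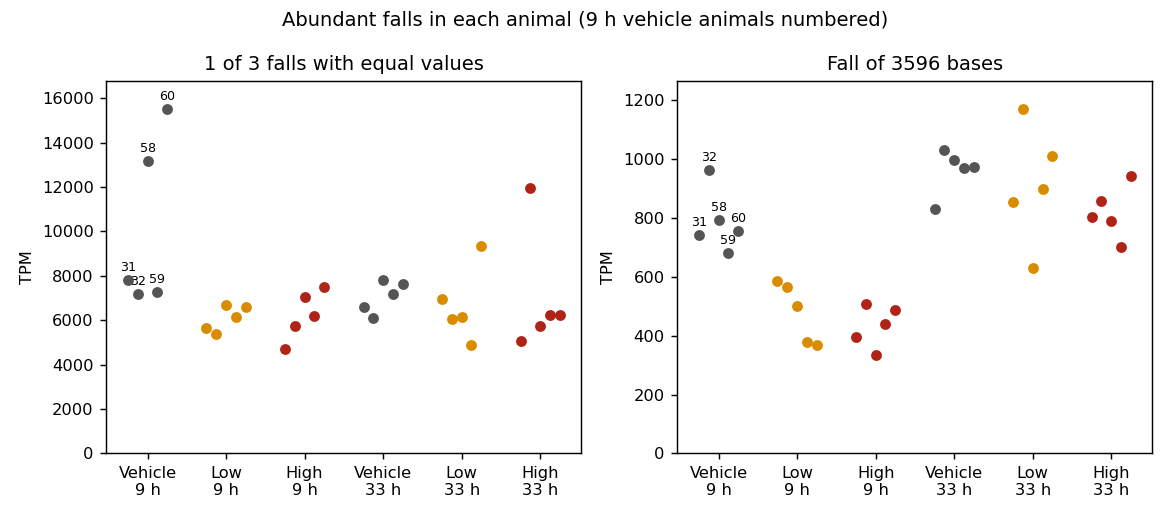
Level (TPM, linear axis from 0) in each animal, by group, of the triple of falls of 159 bases with equal values (left, drawn once) and of the fall of 3596 bases (right), with the numbers of the 9 h vehicle animals beside their points. On the left animals 58 and 60 stand at 13172.8 and 15529.0 TPM, above the other 3 vehicle animals at 7172.8 to 7803.7 TPM, and on the right all 10 treated animals at 9 h are below all vehicle animals.

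A few members were at the limit of detection. Of the 9 rises and 4 falls that did not pass the filter on low counts, none had treated animals clear of the vehicle animals at 9 h, and their vehicle means at 9 h were at most 1.31 TPM for the rises and 1.73 TPM for the falls. A fall of 2601 bases rested on a single vehicle animal, 32, with 2.90 TPM, against at most 0.0005 TPM in the other 4. Its L at the high dose was -1.26 against animals 31 and 32 and 0.03 against animals 58, 59 and 60.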

How the data were processed

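Kidney RNA of 30 guinea pigs (6 groups of 5, groups from the labels) was analysed. Per the labels and methods, the authors made stranded poly-A libraries, sequenced paired reads and quantified them with kallisto 0.42.4 against an Ensembl guinea pig transcriptome, whose release is not given in the sources used here. The authors deposited an estimated count, not normalized, and a TPM value, scaled for effective length and library, for each of 25824 transcripts. kallisto divides shared reads among similar transcripts, so the values of close paralogs or isoforms are uncertain.

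Group means of TPM plus 1 gave the log2 differences of the selection rule. The members, the tests and the gene lists, which went unused for want of symbols, were chosen with earlier results of these data known. Estimated counts were rounded and tested in R 4.3.3 with edgeR 4.0.16 (filterByExpr over 30 animals, TMM, quasi-likelihood test, Benjamini-Hochberg over 19729 transcripts, adjusted p of at most 0.1), fitted on the groups compared. The authors used Sleuth, which was not used here. P-values measure the spread between animals. Alternatives were DESeq2 1.42.0, other thresholds, pseudocounts and scalings, sets of vehicle animals and leaving out each animal. All 10 vehicle animals as controls were added after seeing the data. The test was also run on simulated counts, and the outcome of that run is not reported here. The transcripts named were the 2 rises and 2 falls with the largest smaller difference of the doses at 9 h, among members with no overlap at 9 h and at least 5 TPM in the higher group. Counting depth was 23134713 to 36072327 estimated counts per animal.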

Additional observations from a re-analysis of the deposited data

Results flagged for a closer look

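A sample far from the others of its group was found once in 36 groups of 5 checked, where chance gives about 1 in 20, or 1.8. It was vehicle animal 31 at 9 h for ENSCPOT00000001872.3, with 10.11 TPM against 11.8 to 12.4 TPM in the other 4, on the side of the treated animals.

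The effect of a dose differed between the times for the 4 named transcripts by an edgeR contrast over 4 groups, a difference that the choice of these transcripts favours. On the log2 scale, 33 h minus 9 h, it was -2.34 at the low and -2.61 at the high dose for ENSCPOT00000035308.1 and -2.76 and -2.67 for ENSCPOT00000030964.1. It was 1.21 and 1.04 for ENSCPOT00000010657.3 and 0.92 and 1.25 for ENSCPOT00000001872.3. In all, the effect was lower at 33 h in 71 rises (2.39% of all transcripts were) and higher in 7 falls (2.83%) at the low dose, and lower in 114 rises (10.3%) and higher in 9 falls (10.2%) at the high dose.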

How the results depend on the processing

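The number of transcripts meeting the rule depended on its settings. With 0.1 in place of 1 TPM added there were 318 rises and 107 falls, with 5 TPM 88 and 9, with a 33 h limit of 0.2 94 and 19, with a limit of 0.4 265 rises, and with a 9 h threshold of 1 26 and 1. With group medians there were 194 rises and 53 falls, and only 110 and 12 of them were among the 172 and 33. With vehicle animals 31 and 32 only there were 65 falls, with 58, 59 and 60 only 271 rises, and with all 10 vehicle animals 100 rises and 11 falls, 98 and 9 of them shared. Leaving out 1 animal gave 137 to 206 rises and 27 to 44 falls. Calls at 9 h with animals 31 and 32 only were 8 rises and 0 falls at the low dose and 18 and 1 at the high dose, and with all 10 vehicle animals 14 falls at the high dose. Leaving out 1 animal gave 110 to 144 rises and 19 to 23 falls at the low dose and 131 to 144 and 16 to 22 at the high dose. At 33 h it gave 0 to 4 rises and 0 falls (low dose) and 27 to 37 rises and 2 to 7 falls (high dose), and DESeq2 called 2 rises at the low dose. For the change of the low-dose effect, a threshold of 0.05 gave 30 rises and 2 falls, DESeq2 16 falls, animals 31 and 32 only 5 and 1, animals 58, 59 and 60 only 36 rises, and leaving out 1 animal 35 to 106 rises and 3 to 10 falls. For the high dose leaving out 1 animal gave 91 to 130 and 7 to 13. Counts of calls without a share of all transcripts beside them, here and above, are descriptions only. Nothing about the members is read from them. Between vehicle groups, where edgeR called 0 rises and 0 falls, DESeq2 called 13 and 6, animals 58, 59 and 60 only gave 10 and 10 (of all transcripts 1.64% higher and 1.45% lower), and leaving out 1 animal 0 rises and 0 to 1 fall. Between the doses at 9 h it gave 0 and 0. The 33 h minus 9 h effects of the 4 named transcripts kept their direction under these alternatives. The causes of these differences were not tested. Of the falls, 5 are 2 series of values. With either set of 9 h vehicle animals 104 of 172 rises and 11 of 33 falls kept 0.58 at both doses, and with animals 31 and 32 only 113 and 20 did. Low-dose calls with animals 58, 59 and 60 only were 97 rises and 21 falls, against 141 and 21 with all 5. Whether the falls rest on these animals more than the rises do was not tested. No paired analysis was possible because the animal numbers are not shared between groups.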
